A study of Mus musculus with 10 samples.

Results

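The genes of the constitutive proteasome were followed in cochlear RNA of 2 mouse strains with and without noise exposure. Every probe set was taken whose platform gene symbol began with Psma, Psmb, Psmc or Psmd, leaving out the immunoproteasome genes Psmb8, Psmb9 and Psmb10. This gave 45 probe sets of 35 genes, out of 12488 probe sets and 8252 named genes on the array. The 20S core was represented by 14 genes and the 19S regulatory particle by 17 genes. Another 3 genes, Psmd5, Psmd9 and Psmd10, encode chaperones of regulatory particle assembly. The last, Psmc3ip, shares only the symbol prefix: it encodes a cofactor of meiotic recombination and belongs to neither particle.

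Whole cochleae of female mice aged 10 weeks were profiled on 10 single-colour oligonucleotide arrays, each hybridised with pooled RNA of 8 mice. B6.CAST noise mice (2 arrays) were exposed for 1 h to a 10 kHz octave band of noise at 105 dB SPL and were killed 6 h later. B6.CAST control mice (2 arrays) had a sham exposure in the same chamber. 129X1/SvJ noise mice (3 arrays) received the same noise, and 129X1/SvJ control mice (3 arrays) the same sham exposure. The arrays of a group were biological replicates, and their small number limits the precision of every comparison.

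The 26S proteasome degrades proteins that have been tagged with ubiquitin. Its 20S core is a barrel of stacked rings: the outer rings of alpha subunits control entry, and the inner rings of beta subunits hold the catalytic sites. The 19S regulatory particle caps the barrel. Its base contains the ATPases that unfold a substrate, and its lid removes the ubiquitin chain. The subunits are made in matched amounts, and in mammalian cells the transcription factor Nfe2l1 raises their genes together when proteasome activity falls.

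No proteasome gene passed the test in any comparison. Among 38 member probe sets bright enough to be tested, 0 had an adjusted p below 0.05 (limma) for noise in B6.CAST, where 0.046% of all 8695 tested probe sets were called. The count was also 0 for noise in 129X1/SvJ (0.506% of all tested), for the mean noise change of both strains (0.46%), and for the difference between the noise changes of the strains (0% of all tested). It was 0 again for B6.CAST against 129X1/SvJ after noise (1.45%) and after sham exposure (0.92%). The highest noise values belonged to Psmd11, a lid subunit. Its brightest probe set was higher in noise arrays than in control arrays of both strains without overlap. That held for 1 of 38 member probe sets, against 2.69% of all tested probe sets. The groups of the other tested Psmd11 probe sets overlapped.

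The tested probe sets represented 32 genes, of which 14 encode core subunits, 15 regulatory particle subunits and 3 chaperones. A further 7 member probe sets had mean signals of 4.32 to 42.91 and were too dim to be tested. They left Psmc4, a base ATPase (mean signal 42.91), Psmd2, a base subunit that binds ubiquitin-like domains (30.23), and Psmc3ip (24.41) without a tested probe set. Signals are the deposited linear intensities. Each gene was read from its brightest probe set unless another is named, and 7 of these 32 carry a suffix mark. For Psma3, Psmb4, Psmb5, Psmb7, Psmc3 and Psmd12 the mark (f or s) flags probes that may also match related sequences. Psmd9 carries a different mark (r). Mean signals of the 32 genes spanned 145.8 to 4522, but probe sets differ in brightness, so these do not rank the genes by RNA amount.

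Some markers of cochlear cells were bright, with median signals of 15177 for Gjb2 of supporting cells, 9082 for Dct of the stria vascularis and 3023 for Ocm of outer hair cells. Others of the same lists were dim, such as Tecta (70.7), Tyrp1 (28.85 or less) and Atp2b2 (68.75). Listed markers of other tissues were bright too, with medians of 12848 for erythroid Hba-a1 and 7267 for Sparc of bone. One array stood apart: the first 129X1/SvJ noise array correlated at 0.948 on average with the rest, and each of the rest at 0.965 to 0.972. The ratio of 3′ to 5′ Gapdh probe signal, a sign of RNA or cRNA quality, was 6.94 on the first B6.CAST noise array and 29.2 on the second 129X1/SvJ control array, against 0.790 to 1.40 elsewhere. The 11 tested neutrophil markers also varied. By group mean, all 11 were lower in B6.CAST noise than in B6.CAST control, and all 11 were higher in 129X1/SvJ noise than in 129X1/SvJ control. In both comparisons 0 of them had an adjusted p below 0.05 (limma). Their mean log2 deviation overlapped in 129X1/SvJ, at 2.04, 0.22 and 0.56 in noise and -1.24, 0.41 and 0.92 in control arrays. The highest value came from the array that stood apart. Their summed signal was 2366 to 2640.1 in B6.CAST noise and 5965 to 19762 in B6.CAST control arrays. It was 12395 to 36957 in 129X1/SvJ noise and 3475 to 21284 in 129X1/SvJ control arrays. Some of these markers were dim on single arrays, down to 7.9 for Ctsg and 9.6 for Mmp9. In whole-tissue RNA, fewer cells of a type and less RNA per cell cannot be told apart.

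Proteasome genes varied little across the 10 arrays, with a spread within groups close to that of probe sets of similar signal. The highest array exceeded the lowest by a median of 1.49-fold over the 32 genes, and by under 2-fold in 28 of them. This range was not computed for other probe sets, so it does not set these genes apart. Psmc1, a base ATPase, had the narrowest range at 1.23-fold, and the chaperone gene Psmd5 the widest at 3.68-fold. The median standard deviation within groups was 0.175 on the log2 scale for core genes and 0.192 for regulatory particle genes. It was 0.205 for the 805 probe sets of the members' middle signal range and 0.275 for all tested probe sets. The smallest within-group standard deviations were those of Psmc1 (0.094) and Psmb7 (0.095), and the largest of the core and regulatory genes was that of the alpha subunit gene Psma1 (0.36).

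**Figure D1:**
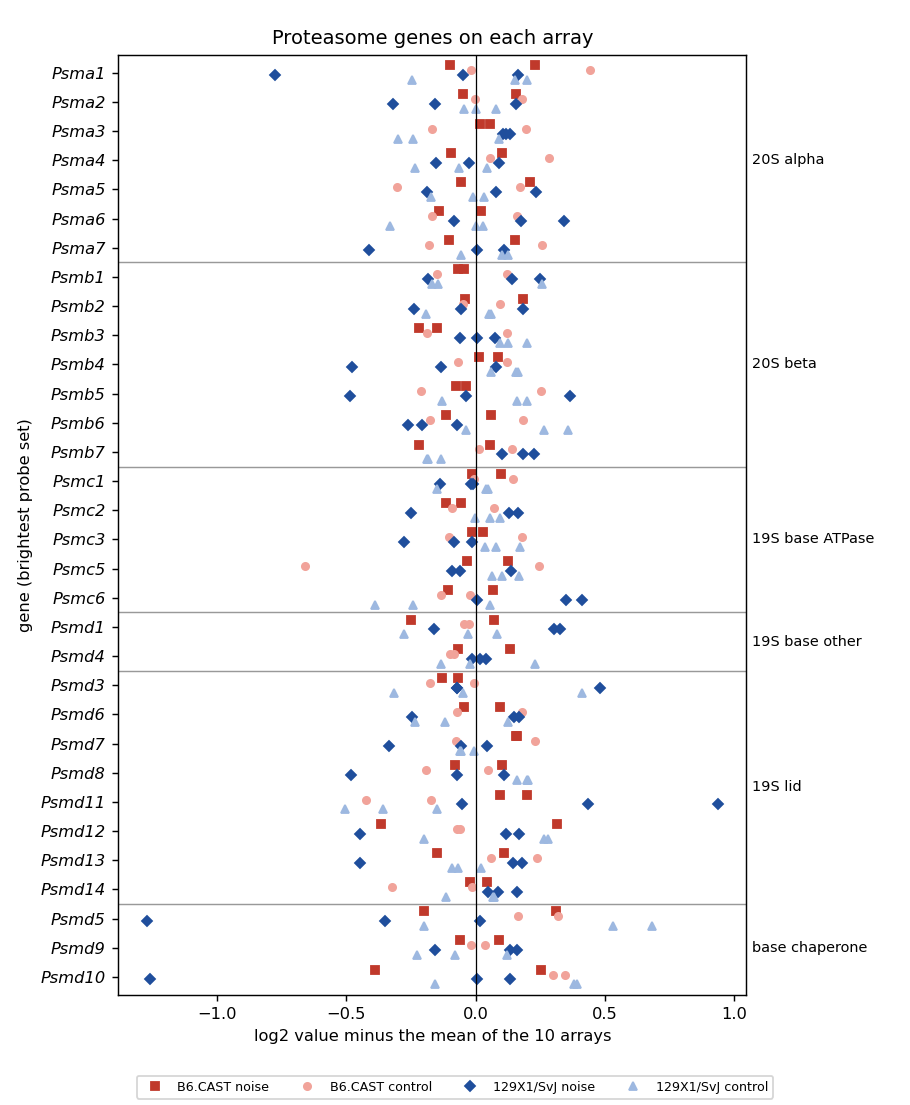
Log2 value of each of 32 proteasome genes on each of the 10 arrays, as a deviation from that gene's mean over the arrays, with B6.CAST noise as squares, B6.CAST control as circles, 129X1/SvJ noise as diamonds and 129X1/SvJ control as triangles. Most points lie close to 0; the far points belong to Psmd11, where a 129X1/SvJ noise array is highest, and to Psmd5 and Psmd10, where a 129X1/SvJ noise array is lowest.

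Promoter sequence was available for 28 of the 34 member genes other than Psmc3ip, as 30 RefSeq windows of the mouse build GRCm38.p6, each running from 250 bases before to 50 bases after a start site. Both strands were searched. The antioxidant response element core TGACNNNGC, the kind of element through which Nfe2l1 acts, was found for 5 of 28 genes (17.9%): Psmb5, Psmb6, Psmc6, Psmd9 and Psmd12. It occurred in 12.4% of all 32851 windows and in 14.0% of the 6823 windows of genes tested here. The ETS motif CCGGAAGT was found for 6 genes (21.4%; Psma6, Psmc1, Psmc2, Psmd6, Psmd12 and Psmd13), against 3.89% of all windows and 7.50% of those of tested genes. The GC box CCCGCCC was found for 14 genes (50%), against 25.6% and 46.1%, CCAAT for 11 (39.3%), against 37.4% and 36.8%, and the AP-1 motif TGACTCA for 1, Psmd9 (3.57%), against 5.20% and 4.12%. The AP-1 motif can fall within the antioxidant response element core; the other motifs were counted separately. A match describes letters only.

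Stretches of 120 bases are shown, 5′ to 3′ on the gene's strand, for Psmb5, Psmb6 and Psmc6, which hold the antioxidant response element core and whose noise values are described next, and for Psmd11, the gene with the highest noise values. Capitals mark the motif, on either strand: the element core in the first 3, and the GC box in Psmd11. The Psmb5 stretch is chr14:54617996-54618115 (minus strand), the Psmb6 stretch chr11:70525237-70525356 (plus strand), the Psmc6 stretch chr14:45329587-45329706 (plus strand) and the Psmd11 stretch chr11:80428495-80428614 (plus strand).
Psmb5: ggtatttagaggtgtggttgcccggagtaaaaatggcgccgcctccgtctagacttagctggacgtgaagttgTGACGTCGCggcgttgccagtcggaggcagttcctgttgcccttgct
Psmb6: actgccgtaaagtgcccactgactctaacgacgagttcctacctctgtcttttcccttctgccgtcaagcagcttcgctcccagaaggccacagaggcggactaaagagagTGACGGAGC
Psmc6: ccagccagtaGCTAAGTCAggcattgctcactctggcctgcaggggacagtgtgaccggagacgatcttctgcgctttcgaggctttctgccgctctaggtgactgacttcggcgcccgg
Psmd11: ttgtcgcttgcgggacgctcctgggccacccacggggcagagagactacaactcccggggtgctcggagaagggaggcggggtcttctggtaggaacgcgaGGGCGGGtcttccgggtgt

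The catalytic genes of the core did not move together after noise. Psmb7, which encodes the subunit with trypsin-like activity, had signals of 1138 and 1358 in B6.CAST noise and 1309 and 1472 in B6.CAST control arrays, and of 1481, 1375 and 1508 in 129X1/SvJ noise and 1163, 1222 and 1137 in 129X1/SvJ control arrays. The 129X1/SvJ groups did not overlap, with noise above control, while the B6.CAST groups overlapped. The log2 change, on the normalised log2(signal + 16) scale used for all changes below, was 0.34 ± 0.13 (SE) in 129X1/SvJ (95% interval 0.06 to 0.62, adjusted p = 0.383, limma) and -0.16 ± 0.16 in B6.CAST.

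Psmb6, the gene of the caspase-like subunit, took the opposite sign in 129X1/SvJ. Its signals were 2072 and 2274 in B6.CAST noise and 2488 and 1991 in B6.CAST control arrays, and 1754, 2045 and 1895 in 129X1/SvJ noise and 2645, 2172 and 2824 in 129X1/SvJ control arrays. All 3 noise arrays lay below all 3 control arrays in 129X1/SvJ, with a log2 change of -0.37 ± 0.15 (95% interval -0.70 to -0.05, adjusted p = 0.396), and the B6.CAST groups overlapped (-0.03 ± 0.18). Without the first 129X1/SvJ noise array the 129X1/SvJ change was -0.33 for Psmb6 and 0.31 for Psmb7.

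Psmb5, the gene of the chymotrypsin-like subunit, had 2275 and 2268 in B6.CAST noise and 2791 and 2076 in B6.CAST control arrays, and 1606, 2276 and 2999 in 129X1/SvJ noise and 2630.1, 2709.5 and 2137 in 129X1/SvJ control arrays. The groups overlapped in both strains. Its log2 changes were -0.08 ± 0.25 in B6.CAST and -0.13 ± 0.21 in 129X1/SvJ (95% interval -0.58 to 0.32). A dim second probe set, with signals of 57.9 to 247, gave 0.57 ± 0.31 in 129X1/SvJ.

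Of the beta subunits without catalytic activity, Psmb4 had signals of 4248 and 4247 in B6.CAST noise and 4449 and 4035 in B6.CAST control arrays, and 2844, 4433 and 3632 in 129X1/SvJ noise and 4577, 4225 and 4625 in 129X1/SvJ control arrays. The 129X1/SvJ groups overlapped, and the array that stood apart was the lowest of all. The 129X1/SvJ change was -0.30 ± 0.14 (adjusted p = 0.438), and -0.15 without that array.

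Psmb3 had 2120.1 and 2150.2 in B6.CAST noise and 2621 and 2159 in B6.CAST control arrays, and 2263, 2552 and 2393 in 129X1/SvJ noise and 2642, 2600.4 and 2774 in 129X1/SvJ control arrays. Its signal was lower in each noise array than in every control array of the same strain, although the B6.CAST groups overlapped after normalisation. The mean noise change of both strains was -0.14 ± 0.10 (-0.22 to -0.06 with 1 array left out). Over the 7 beta genes the median noise change was -0.04 in B6.CAST and -0.13 in 129X1/SvJ.

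The mean log2 deviation of the 7 alpha ring genes spanned -0.198 to 0.241 over the 10 arrays, against -0.166 to 0.102 for the 7 beta genes. Psma3 had 4909 and 4378 in B6.CAST noise and 4986 and 4134 in B6.CAST control arrays, and 4839.5, 4961 and 4766 in 129X1/SvJ noise and 4769.7, 3778 and 3695 in 129X1/SvJ control arrays. The 129X1/SvJ groups met at the edge in signal and did not overlap after normalisation, with a change of 0.27 ± 0.13 (adjusted p = 0.459), against 0.02 ± 0.16 in B6.CAST. The other alpha genes overlapped between noise and control in both strains, and the median noise change over the 7 alpha genes was -0.03 in B6.CAST and 0.06 in 129X1/SvJ.

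Among the base ATPases, Psmc6 had the highest noise value. Its signals were 3376 and 2877 in B6.CAST noise and 3114 and 2979.8 in B6.CAST control arrays, and 3919.7, 3119 and 4016 in 129X1/SvJ noise and 3280.0, 2425 and 2668 in 129X1/SvJ control arrays. One 129X1/SvJ noise array lay within the range of the 129X1/SvJ controls. The change was 0.45 ± 0.15 in 129X1/SvJ (95% interval 0.11 to 0.78, adjusted p = 0.330; 0.40 without the array that stood apart) and 0.06 ± 0.18 in B6.CAST.

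The remaining 4 tested ATPase genes had smaller 129X1/SvJ changes, from -0.22 for Psmc3 to -0.03 for Psmc2. In 129X1/SvJ the Psmc3 signals were 1354 to 1645 in noise and 1730 to 1950 in control arrays, without overlap (adjusted p = 0.533, limma). Dimmer tested probe sets of Psmc3 gave -0.33 ± 0.24 and -0.35 ± 0.21 in 129X1/SvJ. In B6.CAST the Psmc3 change was -0.03 ± 0.16, and -0.21 ± 0.29 and 0.07 ± 0.25 on the dimmer probe sets. Psmc5 had 1265 and 1413 in B6.CAST noise and 1504 and 810.4 in B6.CAST control arrays, and 1172, 1384 and 1256 in 129X1/SvJ noise and 1481, 1381 and 1359 in 129X1/SvJ control arrays. One B6.CAST control array was far below the other 9 arrays, and comparisons with that group rest on it. Psmd1, a scaffold subunit of the base, had 1859 and 1449 in B6.CAST noise and 1676 and 1698 in B6.CAST control arrays, and 2124, 2103 and 1558 in 129X1/SvJ noise and 1698, 1459 and 1818 in 129X1/SvJ control arrays. Its groups overlapped in both strains (129X1/SvJ change 0.23 ± 0.17; 0.13 to 0.39 with 1 array left out).

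Psmd11 encodes a lid subunit that clamps the regulatory particle to the core, and in human cells its level has been tied to assembly of the complete proteasome. Its brightest probe set had signals of 1936 and 1745 in B6.CAST noise and 1213 and 1489 in B6.CAST control arrays, and of 3084, 2223 and 1603 in 129X1/SvJ noise and 1169, 1301 and 1463 in 129X1/SvJ control arrays. Noise arrays exceeded control arrays in both strains without overlap. Psmd11 was the only one of 38 member probe sets to do so in both strains, where 2.69% of all tested probe sets were higher in noise in this way.

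The log2 change of Psmd11 was 0.44 ± 0.27 in B6.CAST (95% interval -0.14 to 1.03) and 0.78 ± 0.22 in 129X1/SvJ (0.30 to 1.25, adjusted p = 0.234, limma). The mean of both was 0.61 ± 0.17 (0.23 to 0.99, adjusted p = 0.296). The changes of the strains differed by -0.33 ± 0.34, which was within the error. The 129X1/SvJ value was 0.53 without the first 129X1/SvJ noise array (adjusted p = 0.464) and 1.03 without the third (adjusted p = 0.0486), the only setting tried in which a proteasome probe set passed at 0.05. The other 2 tested probe sets of Psmd11 showed smaller values. The one with signals of 505 to 801 gave 0.09 ± 0.23 in B6.CAST and 0.18 ± 0.19 in 129X1/SvJ, with overlapping groups, and the one with signals of 97.1 to 181 gave 0.05 ± 0.31 and 0.20 ± 0.25.

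**Figure D2:**
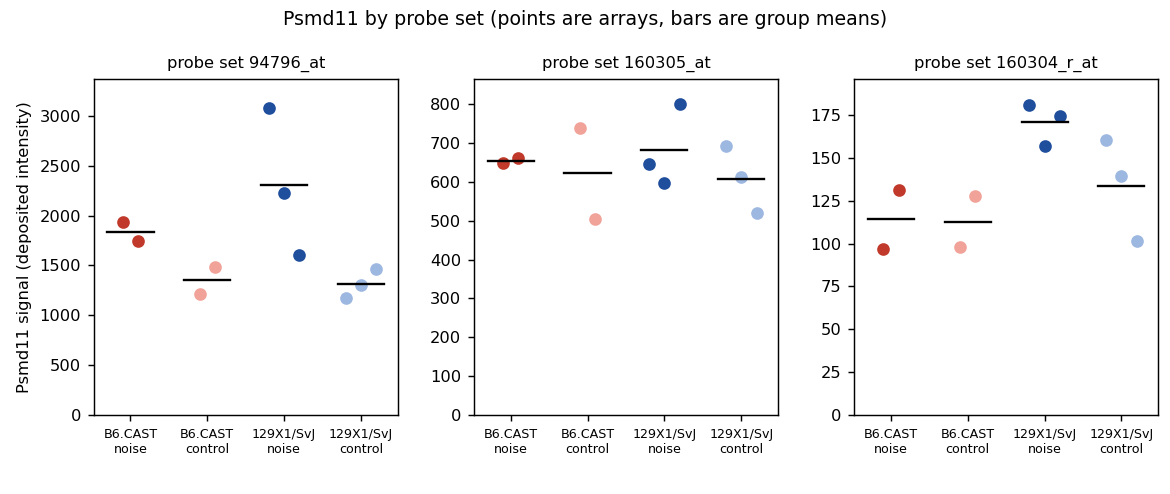
Deposited signal of Psmd11 on each array (points) with group means (bars), in a panel for each of its 3 tested probe sets and with vertical axes starting at 0. In the brightest probe set all noise arrays lie above all control arrays of their strain (at least 1603 against at most 1463 in 129X1/SvJ); in the other 2 panels the groups overlap.

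The other lid genes did not share the pattern of Psmd11. Psmd8 had 1251 and 1085 in B6.CAST noise and 1188 and 1015 in B6.CAST control arrays, and 805, 1082 and 1271 in 129X1/SvJ noise and 1346, 1361 and 1267 in 129X1/SvJ control arrays. Its 129X1/SvJ change was -0.34 ± 0.17 (adjusted p = 0.462) and -0.17 without the lowest array, the one that stood apart. Psmd14, the deubiquitinase of the lid, had 1089.9 and 1124 in B6.CAST noise and 1081 and 869.5 in B6.CAST control arrays, and 1184, 1136 and 1146 in 129X1/SvJ noise and 1162, 1035 and 1129 in 129X1/SvJ control arrays. The mean noise change of Psmd14 was 0.13 ± 0.11 (0.06 to 0.21 with 1 array left out).

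Psmd7, the partner of Psmd14, had 2398 and 2299 in B6.CAST noise and 1972 and 2494 in B6.CAST control arrays, and 1589.8, 2119 and 2004 in 129X1/SvJ noise and 2019, 2048 and 2067 in 129X1/SvJ control arrays. Its noise and control groups overlapped in both strains. The summed signal of the 8 lid genes was 11640.4 to 12138 in B6.CAST noise and 11101 to 11352 in B6.CAST control arrays, and 11879.9 to 12167 in 129X1/SvJ noise and 10976 to 11575 in 129X1/SvJ control arrays. Without Psmd11, a split made after its values were seen, the sums were 9896 to 10202 and 9863 to 9888 in B6.CAST noise and control arrays, and 9083 to 10277 and 9675 to 10291 in 129X1/SvJ noise and control arrays, so that the 129X1/SvJ groups overlapped and the B6.CAST groups, close to each other, did not.

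The chaperone gene Psmd5, singled out after its values were seen, had the most negative noise value of the 32 genes. Its signals were 911 and 636 in B6.CAST noise and 907 and 818 in B6.CAST control arrays, and 316, 725 and 589.5 in 129X1/SvJ noise and 1076, 644 and 1163 in 129X1/SvJ control arrays. The groups overlapped in both strains. The 129X1/SvJ change was -0.87 ± 0.32 (95% interval -1.58 to -0.17, adjusted p = 0.377), and -0.51 without the array that stood apart (adjusted p = 0.728). Psmd10, a dimmer chaperone gene, had -0.58 in 129X1/SvJ, and -0.14 without the array that stood apart. Psmd9 had 0.11.

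At an unadjusted p below 0.05, 5 of the 38 probe sets differed between noise and control in 129X1/SvJ (13.2%), where 11.5% of all tested probe sets did. Psmb7, Psmc6 and Psmd11 were higher in noise and Psmb6 and Psmd5 lower. In B6.CAST the count was 0, against 2.1% of all tested, and for the mean of both strains it was 1, Psmd11, against 7.63%. Non-overlapping noise and control groups were found in B6.CAST for 4 members higher and 1 lower after noise (background 15.8% and 13.8%), and in 129X1/SvJ for 3 higher and 4 lower (6.35% and 9.63%). In both strains at once, 0 members were lower after noise, against 2.58% of all tested.

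The intervals also bound what a change could be. The 95% interval of the noise change lay within 1 log2 unit of 0 (a 2-fold change either way) for 29 of 32 genes in B6.CAST (90.6%, against 69.2% of all tested probe sets) and for 29 of 32 in 129X1/SvJ (90.6%, against 74.1%). All 14 core genes were among them in both strains. Within 0.5 log2 units the counts were 17 in B6.CAST (background 11.3%) and 13 in 129X1/SvJ (17.7%). For the mean of both strains, 30 genes lay within 1 unit (background 89%) and 27 within 0.5 (38.6%). These background shares are not matched for signal: the median was 1762 for core and regulatory genes and 379 for all tested probe sets. The median standard deviation within groups was 0.190 for these genes, 0.205 for probe sets of their middle signal range and 0.275 for all tested.

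**Figure D3:**
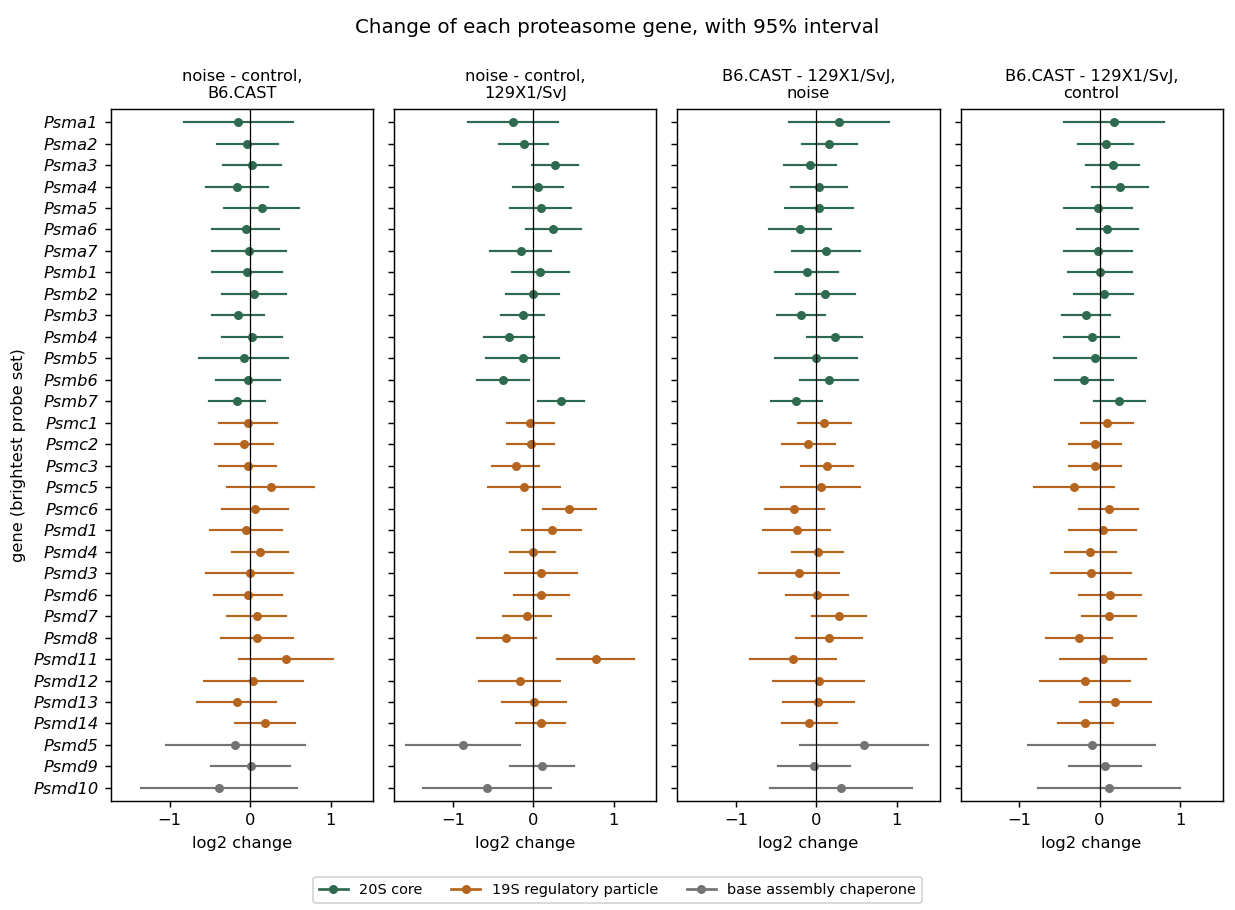
Log2 change (points) with 95% interval (lines) of each of 32 proteasome genes, in panels for noise minus control in B6.CAST, noise minus control in 129X1/SvJ, B6.CAST minus 129X1/SvJ after noise, and B6.CAST minus 129X1/SvJ after sham exposure; colour gives the particle. Nearly all intervals include 0, and Psmd11 (0.78) and Psmd5 (-0.87) lie farthest out in the 129X1/SvJ noise panel.

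Set side by side, the core and the regulatory particle kept close to each other. The median noise change in B6.CAST was -0.04 over 14 core genes and 0.04 over 15 regulatory particle genes, beside 0.01 over all 6506 genes tested. In 129X1/SvJ the medians were -0.06 for the core, -0.01 for the regulatory particle and -0.05 for all genes. These medians describe the members and were not tested.

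As a mean log2 deviation from the average of the 10 arrays, the core lay at -0.006 ± 0.028 (SD) in B6.CAST noise and 0.040 ± 0.164 in B6.CAST control arrays (n = 2 each), and at -0.025 ± 0.142 in 129X1/SvJ noise and 0.003 ± 0.046 in 129X1/SvJ control arrays (n = 3 each). The regulatory particle lay at 0.009 ± 0.051 in B6.CAST noise and -0.048 ± 0.087 in B6.CAST control arrays, and at 0.038 ± 0.017 in 129X1/SvJ noise and -0.012 ± 0.046 in 129X1/SvJ control arrays. Within each strain the core means differed by less than the larger of the 2 standard deviations. The regulatory particle means did so in B6.CAST but not in 129X1/SvJ. There the array values were 0.018 to 0.051 in noise and -0.066 to 0.017 in control, without overlap. The summed signal of the 15 regulatory genes was 26161 to 26466 in 129X1/SvJ noise and 24178 to 25653 in 129X1/SvJ control arrays, without overlap. Leaving out Psmd11, again after its values were seen, gave 23077 to 24863 in noise and 22877 to 24484 in control arrays, which overlapped.

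Core minus regulatory particle was -0.071 and 0.040 on the B6.CAST noise arrays and 0.143 and 0.034 on the B6.CAST control arrays. It was -0.200, 0.042 and -0.031 on the 129X1/SvJ noise arrays and 0.037, 0.032 and -0.025 on the 129X1/SvJ control arrays. The lowest and the highest of these values came from the 129X1/SvJ noise array that stood apart and from the first B6.CAST control array. The 129X1/SvJ noise array held the lowest of 10 values for 13 of the 29 core and regulatory genes (44.8%), against 27.3% of all probe sets; the B6.CAST control array held the highest value for 10 of 29, against 11.5% of all probe sets. Summed core signal was 31242 to 31302 in B6.CAST noise and 30056 to 34360 in B6.CAST control arrays, and 27886 to 33469 in 129X1/SvJ noise and 30576 to 32990.3 in 129X1/SvJ control arrays. Neutrophil marker signal, given above, differed severalfold over these arrays, and its part in the proteasome values was not tested.

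**Figure D4:**
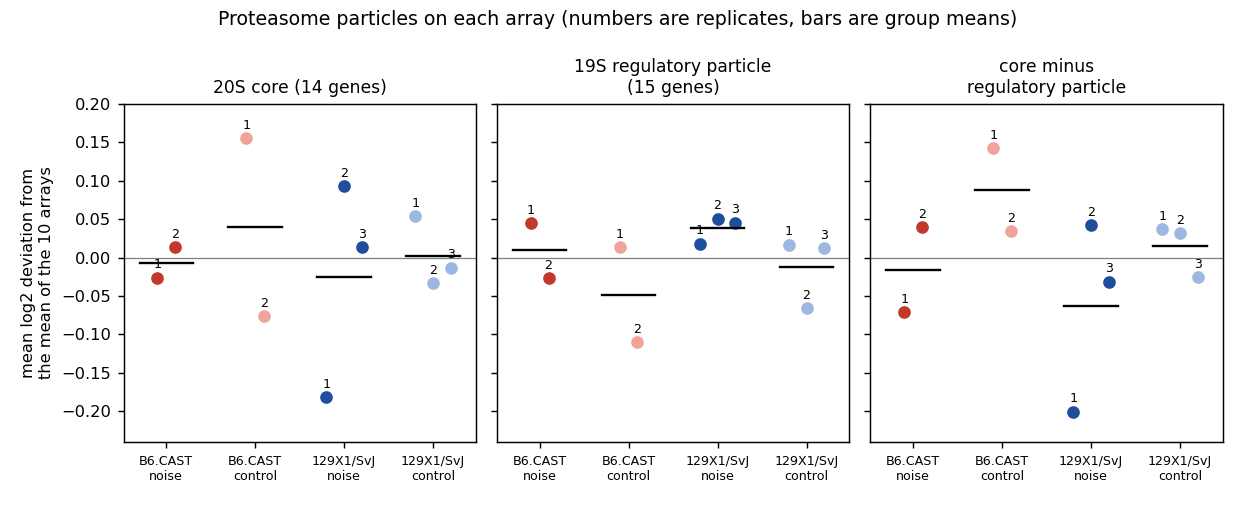
Mean log2 deviation of 14 core genes, of 15 regulatory particle genes, and the difference of both, on each array (points, numbered by replicate) with group means (bars). The 129X1/SvJ noise array at -0.182 and the B6.CAST control array at 0.156 set the range of the core; the regulatory particle spans less, and the groups overlap in the core panel.

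The strains were also close. After noise, B6.CAST minus 129X1/SvJ had a median of 0.03 over core genes and 0.02 over regulatory particle genes, beside 0.02 over all genes. After sham exposure it was 0.03 for the core, -0.06 for the regulatory particle and -0.05 for all genes. At an unadjusted p below 0.05 the members numbered 0 in both comparisons, where 10.6% (noise) and 11.1% (sham exposure) of all tested probe sets passed. The 95% interval lay within 1 log2 unit of 0 for 30 of 32 genes after noise and for 31 of 32 after sham exposure, against 68.5% of all tested probe sets in each. It lay within 0.5 for 13 and 16 genes, against 12.9% in each. These background shares are again not matched for signal.

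Groups that did not overlap between strains were 2 higher and 5 lower in B6.CAST after noise (background 13.2% and 12.1%), and 3 higher and 1 lower after sham exposure (13.9% and 16%). Psmd7 differed by 0.27 ± 0.15 after noise (adjusted p = 0.614; 0.16 to 0.35 with 1 array left out), with both B6.CAST noise arrays above all 3 of 129X1/SvJ. Psma4, an alpha subunit gene, had 1241 and 1413 in B6.CAST noise and 1144, 1361 and 1309 in 129X1/SvJ noise arrays, and 1574 and 1394 in B6.CAST control and 1377, 1278 and 1096 in 129X1/SvJ control arrays. It differed by 0.26 ± 0.16 after sham exposure (adjusted p = 0.638), and by 0.14 to 0.37 with 1 array left out. Psmc5 differed by -0.32 ± 0.23 after sham exposure, but by -0.77 without the first B6.CAST control array and by 0.13 without the second, so its sign rests on 1 array.

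For the noise change of B6.CAST minus that of 129X1/SvJ, the members' median was 0.05 over the core and 0.01 over the regulatory particle, beside 0.07 over all genes. One of 38 probe sets passed an unadjusted p of 0.05, against 2.97% of all tested. This was Psmb7, with a difference of -0.50 ± 0.20 (95% interval -0.95 to -0.05, adjusted p = 0.997). Intervals of this difference were wide. They lay within 1 log2 unit of 0 for 27 of 32 genes (84.4%, against 45.2% of all tested probe sets). Within 0.5 lay 2 genes (background 2.35%), and here too the background is not matched for signal.

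Genes that act with the proteasome were described from lists of known function, and 0 of them passed in any of these comparisons (limma). At an unadjusted p below 0.05, 0 of their 25 tested genes differed with noise in B6.CAST, against 2.1% of all tested probe sets. In 129X1/SvJ 3 of 25 did (12%, against 11.5%): Psmb9, Maff and Mafk. Maff passed the signal filter only through its noise arrays, so its place in this count carries no weight. Counted over all 32 probe sets of these genes it was 5, with a dimmer probe set each of Mafg and Ubqln1. By gene, 2 of 25 passed for the mean of both strains (8%, against 7.63%), Maff again among them. For the difference 1 did, Ubqln1 (4%, against 2.97%). Between strains 2 passed after noise (8%, against 10.6%) and 2 after sham exposure (8%, against 11.1%). Over the 32 probe sets, these counts were 2, 2, 3 and 5. The 3 immunoproteasome genes, whose products replace the catalytic subunits in immune cells and after interferon, were all tested. Psmb8 had 397 and 402 in B6.CAST noise and 464 and 350.4 in B6.CAST control arrays, and 353, 289.7 and 362 in 129X1/SvJ noise and 204, 320.5 and 318 in 129X1/SvJ control arrays. The B6.CAST arrays lay above the 129X1/SvJ arrays after noise and after sham exposure without overlap, and the difference after sham exposure was 0.53 ± 0.23 (adjusted p = 0.432; 0.33 without the first 129X1/SvJ control array).

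Psmb9 had 235 and 97.9 in B6.CAST noise and 214 and 149 in B6.CAST control arrays, and 87.7, 32.7 and 115 in 129X1/SvJ noise and 101, 165 and 181 in 129X1/SvJ control arrays. Its 129X1/SvJ noise change was -1.09 ± 0.43 (adjusted p = 0.395), with overlapping groups, and -0.70 without the second 129X1/SvJ noise array. Psmb10 had 730.1 and 663 in B6.CAST noise and 711 and 576 in B6.CAST control arrays, and 451, 646 and 762 in 129X1/SvJ noise and 529.9, 709 and 704 in 129X1/SvJ control arrays, and its groups overlapped.

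The alternative activators Psme1, Psme3 and Psme4 were tested out of 6 listed activator and inhibitor genes, with median noise changes of 0.05 in B6.CAST and 0.06 in 129X1/SvJ. Of 9 listed core assembly factors and proteasome-bound proteins, 8 were tested, with medians of -0.14 in both strains. Of 12 genes of ubiquitin activation and shuttling, 6 were tested, with medians of 0.10 in B6.CAST and 0.13 in 129X1/SvJ.

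The regulators of proteasome genes, Nfe2l1 and its relatives and partners, had 5 of 6 genes tested. Their median noise changes were 0.16 in B6.CAST and 0.22 in 129X1/SvJ, with Maff, dim in control arrays, counted among the 5. Nfe2l1 had 3526 and 4490.3 in B6.CAST noise and 3397 and 4535 in B6.CAST control arrays, and 3452, 4153 and 3778 in 129X1/SvJ noise and 3893, 2331 and 4046 in 129X1/SvJ control arrays. Its groups overlapped on this probe set in both strains, with changes of 0.04 ± 0.26 in B6.CAST and 0.22 ± 0.21 in 129X1/SvJ. The dimmer tested probe set of Nfe2l1 gave -0.367 ± 0.899 in B6.CAST, with overlapping groups. In 129X1/SvJ it gave 1.504 ± 0.734 (adjusted p = 0.454, limma). There its signals were 1023.3, 475.2 and 193 in noise and 141.7, 130.5 and 172.8 in control arrays, without overlap. The highest came from the array that stood apart. In B6.CAST and 129X1/SvJ in that order, the changes were 0.16 ± 0.24 and -0.02 ± 0.20 for Nfe2l2, a related factor. For Mafg, a small Maf protein gene, they were 0.03 ± 0.29 and 0.01 ± 0.24 in the same order. A dimmer second probe set of Mafg gave -0.25 ± 0.35 in B6.CAST and 0.69 ± 0.29 in 129X1/SvJ (adjusted p = 0.412, limma). Its noise arrays lay above its control arrays without overlap in 129X1/SvJ only. Mafk, a small Maf partner of Nfe2l1 that was singled out after its values were seen, had 506 and 439.7 in B6.CAST noise and 285 and 354 in B6.CAST control arrays, and 958, 593 and 634 in 129X1/SvJ noise and 309.5, 373 and 332 in 129X1/SvJ control arrays. Noise arrays exceeded control arrays in both strains without overlap, with changes of 0.54 ± 0.27 in B6.CAST and 1.04 ± 0.22 in 129X1/SvJ (adjusted p = 0.0849). Leaving out 1 array gave 0.35 to 0.73 in B6.CAST and 0.82 to 1.17 in 129X1/SvJ. Maff, chosen in the same way, had 66.0 and 90.1 in B6.CAST noise and 50.8 and 29.8 in B6.CAST control arrays, and 289.6, 141 and 57.8 in 129X1/SvJ noise and 9.5, 40.0 and 43.9 in 129X1/SvJ control arrays. The control signals lay near or under 42.9, the mean level below which probe sets were left out, so no change is given for it.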

How the data were processed

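Cochlear RNA was labelled with biotin and hybridised to oligonucleotide arrays, per the labels' protocols. The authors deposited 1 linear intensity per probe set and array, already scaled: the trimmed mean lay between 499.2 and 499.8 on every array. Neither the software nor its scaling target is stated in the labels, and no detection calls were used. Here 16 was added to each intensity and log2 taken, arrays were quantile-normalised, and control probe sets and the 30% with the lowest mean were left out, leaving 8695. A model with 4 group means on 10 arrays was fitted with limma 3.58.1 (R 4.3.3, eBayes with an intensity trend), with Benjamini-Hochberg adjustment over all 8695 and a threshold of 0.05. The procedure was tested on simulated independent values without array effects, so that test does not cover an outlying array. A gene's level was read from its brightest probe set, and probe sets naming several genes were left unnamed. Values on every array are given for the catalytic genes and, for each comparison, the 3 core and 3 regulatory particle genes of smallest p. The members and lists were chosen with earlier results of these data known. Alternatives covered scaling, pseudocount, filter, variance prior, array weights, the arrays fitted, each array left out, a replicate block and probe set choice. Promoter sequences came from RefSeq (GRCm38.p6).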

Additional observations from a re-analysis of the deposited data

How the results depend on the processing

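Under every setting tried, 0 proteasome probe sets passed the threshold in all 6 comparisons, apart from Psmd11 for noise in 129X1/SvJ without the third noise array, where the count was 1 in place of 0 (0 to 1 over the arrays left out in turn). The count over all probe sets was less steady: 0 to 7 for noise in B6.CAST (4 as reported), 22 to 71 for noise in 129X1/SvJ (44), 10 to 54 for their mean (40), 0 throughout for the difference, 26 to 201 between strains after noise (126) and 23 to 151 after sham exposure (80).

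Particle medians moved beyond the standard deviation between arrays (0.110 for the core, 0.050 for the regulatory particle) 17 times with 1 array left out, 7 times with median centring, 3 times with unmarked probe sets alone and 2 times without the arrays of high Gapdh ratio. Median centring set the noise median in 129X1/SvJ at -0.213 for the core and -0.163 for the regulatory particle. It shifted the median of all tested probe sets itself to -0.11 there and to 0.16 for the difference; relative to these shifts the 129X1/SvJ values were -0.10 and -0.05. The regulatory mean became -0.040, the difference 0.220 (core) and 0.187 (regulatory), and the strain contrast after noise 0.165 and 0.153. Only probe sets without a suffix mark gave regulatory medians of 0.048 (noise in 129X1/SvJ), -0.068 (difference) and 0.038 (strains after sham exposure). Without both arrays of high Gapdh ratio, a setting chosen after seeing the data, they were -0.023 (mean noise) and -0.055 (strains after noise). The cause of these shifts was not tested.

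Leaving out each array in turn gave, for core and then regulatory particle, -0.181 to 0.093 and -0.037 to 0.108 for noise in B6.CAST, -0.128 to 0.068 and -0.055 to 0.035 for noise in 129X1/SvJ, -0.117 to -0.0014 and -0.028 to 0.045 for the mean, and -0.149 to 0.154 and -0.066 to 0.061 for the difference. Between strains the ranges were -0.057 to 0.112 and -0.066 to 0.023 after noise, and -0.058 to 0.177 and -0.063 to 0.026 after sham exposure. Where this left 1 B6.CAST array, it was assumed to vary like the other groups.

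Deviations of same-numbered noise and control arrays correlated at -0.17 in B6.CAST and at -0.15, -0.18 and -0.39 in 129X1/SvJ. No 129X1/SvJ noise array correlated best with its own number. Between strains, same-numbered arrays correlated at -0.18 and 0.14 in noise and at 0.12 and 0.07 in control. Deviations from a mean of 2 or 3 arrays sum to 0, so these values cannot decide whether the numbers pair the arrays. With the replicate number as a block 0 proteasome probe sets passed in each comparison, and the Psmd11 change in 129X1/SvJ stayed at 0.78 (adjusted p = 0.396); all calls numbered 2, 31, 28, 0, 44 and 34, in the order of comparisons above. With the B6.CAST noise numbers crossed, chosen after seeing the data, the block gave 0 proteasome calls and 2, 30, 29, 0, 48 and 40 in all. With 2 or 3 arrays a group and no detection calls, small changes and dim probe sets could not be resolved.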
